A study of Mus musculus with 5 samples.

Results

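The 10 genes of the integrated stress response described here were Atf3, Atf4, Ddit3, Ddit4, Trib3, Nupr1, Chac1, Asns, Sesn2 and Ppp1r15a. They were taken by name from the 31053 genes of the count matrices, and all 10 were present in each matrix. The matrices came from dissociated ovaries of untreated C57BL6/J mice aged 2, 3, 4, 5 and 6 wk, with 1 single-cell library per age. An age therefore has no replicate, and the number of mice behind a library is not given in the sources used here. The study followed the first ovarian follicles to grow, called wave 1, through puberty, when their granulosa cells turn over while theca cells survive. The comparison of most interest was between granulosa cells of antral follicles and those of remodeling follicles. The study attributes antral granulosa cells at 2 and 3 wk to wave 1. By 5 wk it attributes nearly all of them to boundary follicles, a set of primordial follicles that activate early. It describes indications that its remodeling clusters derive from wave 1. At 5 and 6 wk the comparison therefore cannot tell the remodeling state apart from the follicle wave.

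The integrated stress response is a way for cells to slow protein synthesis when amino acids run short, when unfolded proteins collect in the endoplasmic reticulum, or when heme is lacking or viral RNA is present. Separate kinases sense these conditions and phosphorylate the translation factor eIF2, which lowers general translation and favours translation of Atf4. ATF4 then drives genes for amino acid supply, for further transcription factors such as CHOP (from Ddit3), and for restart of translation through Ppp1r15a. Since ATF4 protein is set largely by translation, the mRNA levels measured here do not report the activity of the pathway directly.

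There were 9471, 9253, 11077, 7779 and 10583 cells from 2 wk to 6 wk, and median depths ranged from 9056 to 12424 unique molecular identifiers (UMIs, counted RNA molecules) per cell. Any pair of libraries shared 18 to 35 cell barcodes, at most 0.399% of the smaller library. Cells were clustered again with the 10 genes and the pathway lists below left out of the variable genes. Clusters were named from marker genes, except 3 granulosa clusters named by their match to published mean expression. Those 3 were antral clusters of 1877 and 688 cells and a secondary cluster of 1023 cells. Names such as antral and stromal are short for antral-like and stromal-like. Antral cells numbered 4408 and remodeling cells 3147, but only 118 of the remodeling cells came from 2 wk and 130 from 3 wk. A level is a gene's share of all UMIs of one group and library, on the counts-per-million scale (CPM).

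Granulosa markers (Fst, Amh, Nr5a2, Inha and Foxl2) summed to 2139 to 4206 CPM in remodeling cells, against 7037 to 10506 CPM in antral cells and 213 to 397 CPM in stromal cells. Remodeling cells also held more of the stromal markers (26.8 to 106 CPM, against 8.75 to 19.5 CPM in antral cells) and of the smooth muscle markers (45.1 to 223 CPM, against 18.4 to 35.3 CPM). The same stromal markers reached 2652 to 4107 CPM in stromal cells, and the smooth muscle markers 8544 to 12357 CPM in smooth muscle cells. None of these markers was at 0 in either granulosa group. At 2 wk the remodeling cells held 3439 CPM of primary-stage granulosa markers, against 1992 CPM in antral cells, and at 3 wk 1845 CPM against 842 CPM. At 4, 5 and 6 wk they held 285, 501 and 418 CPM against 423, 362 and 454 CPM, so the excess was smaller but still present at 5 wk. Remodeling-stage markers summed to 1746 CPM in remodeling cells at 2 wk and 2488 CPM at 3 wk, against 1060 and 914 CPM in antral cells. The study dates the start of atresia to about 3 wk and found few cells of its remodeling clusters at 2 and 3 wk. The name remodeling is therefore least sure at 2 wk, where primary-stage markers exceeded remodeling-stage markers. Primordial-stage markers were higher in remodeling cells in each library. They summed to 718, 210, 37.4, 44.1 and 58.1 CPM from 2 to 6 wk, against 162, 62.9, 13.8, 17.6 and 23.0 CPM in antral cells. Antral-stage markers summed to 964, 2171, 1868, 3510 and 4807 CPM in antral cells from 2 to 6 wk. In secondary cells they summed to 336, 523, 1041, 1230 and 1410 CPM. The 2 wk antral value thus lay below the secondary values of 4, 5 and 6 wk. The study counted no antral follicles before 3 wk, although it scored antral granulosa clusters at 2 wk. The part of these markers in the results on antral cells was not tested. The values for 4, 5 and 6 wk alone are given with the results on members in remodeling cells where they change a call. For the pathway lists no values of these ages alone are given.

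Atf3 and Nupr1 rose in remodeling granulosa cells relative to antral granulosa cells, and no other member passed the test. Atf3, a transcription factor quickly induced by many stresses, had 106, 187, 106, 103 and 30.3 CPM in antral cells at 2, 3, 4, 5 and 6 wk. In remodeling cells of the same libraries it had 337, 463, 198, 202 and 109 CPM, so each library showed the higher value in remodeling cells although the ranges of the groups overlapped. The log2 fold change was 1.26 (SE 0.13, n = 5 libraries, adjusted p = 5.22e-05, edgeR's quasi-likelihood test with the library as a block), and the ratio within a library lay between 1.87 and 3.60.

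Nupr1 encodes a small nuclear protein induced by stress. Its level in antral cells was 14.2, 126, 469, 385 and 223 CPM from 2 to 6 wk, and in remodeling cells 79.9, 270, 1236, 789 and 536 CPM. Again all 5 libraries were higher in remodeling cells, by 2.05-fold to 5.63-fold, while age moved the level more than the group did. The log2 fold change was 1.29 (SE 0.14, n = 5, adjusted p = 8.94e-05). With 4, 5 and 6 wk alone, Atf3 gave 1.17 (adjusted p = 0.000156) and Nupr1 1.19 (adjusted p = 8.94e-07). Without the block neither passed, with adjusted p = 0.13 for Atf3 and adjusted p = 0.386 for Nupr1.

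These were 2 of 9 members tested, where 19.1% of the 12247 genes tested were higher in remodeling cells, so the number of members called was close to that of genes at large. None of the 9 was lower, against 18.8% of all genes (edgeR, with 2 at an unadjusted p under 0.05 and none with DESeq2). The p-values do not cover the clustering, which was made on the same cells, and Nupr1 was among the 10 leading genes of a remodeling cluster although it did not take part in making or naming it. The study had already listed Atf3 among genes preferentially expressed in its remodeling clusters, from the same libraries. The remodeling clusters here matched those best, so the Atf3 result is not independent of that list. Immediate-early and heat-shock genes, which dissociation of tissue also induces, summed to 11880, 15985, 14066, 15085 and 10935 CPM in antral cells and to 15306, 21043, 15441, 18207 and 12999 CPM in remodeling cells. They were higher in remodeling cells in each library, and their part in the result was not tested. Nor was that of the stromal, smooth muscle, primary-stage and primordial-stage markers. Fewer cells with a transcript and less transcript per cell cannot be told apart in such sums.

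**Figure D1:**
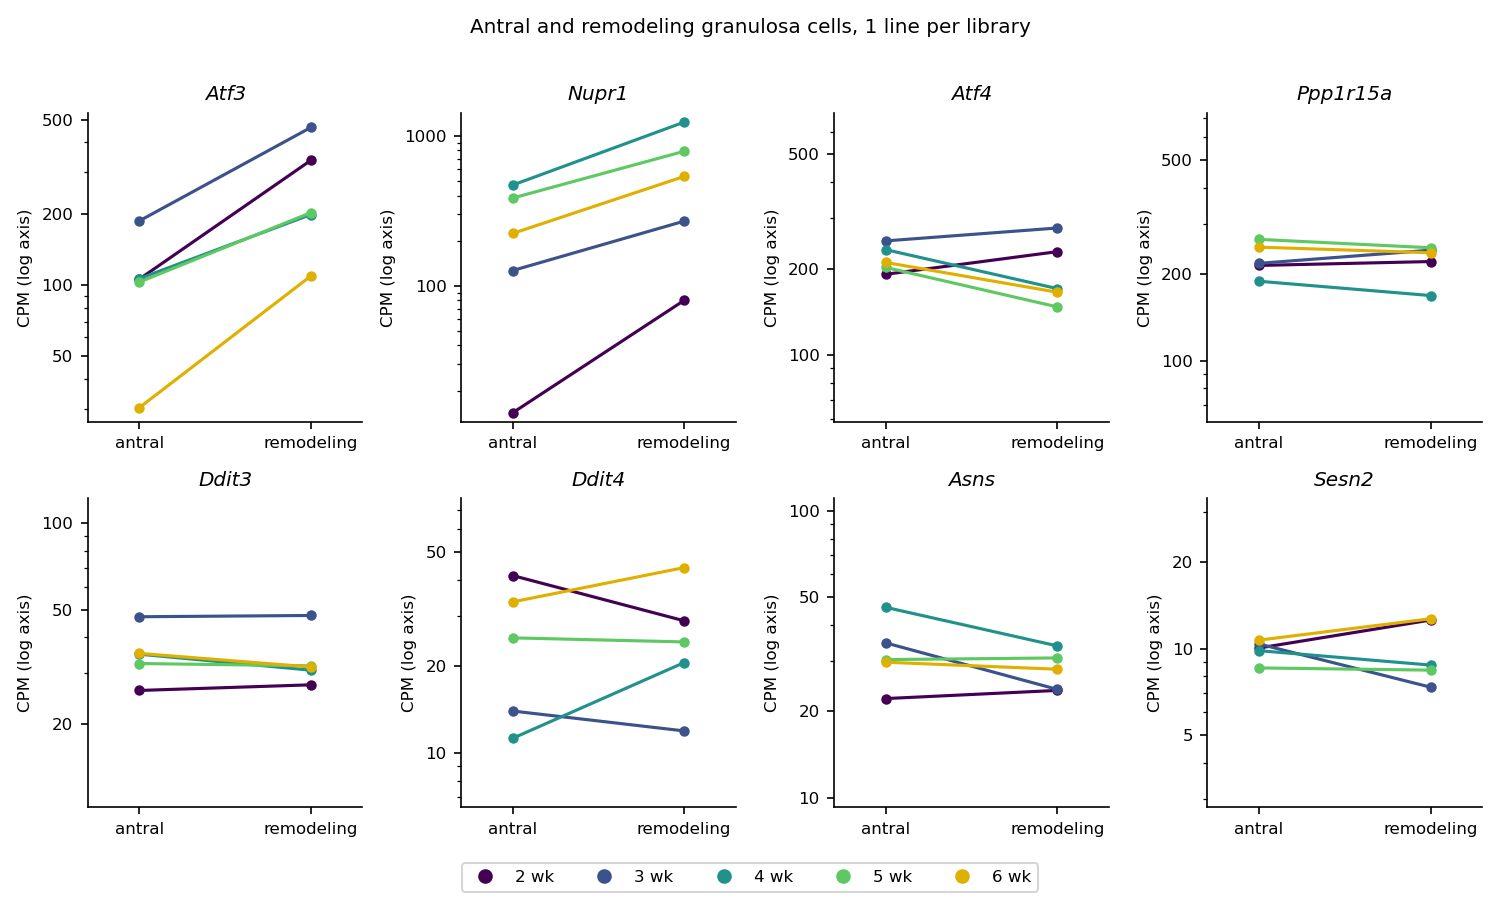
Level of 8 members in antral and remodeling granulosa cells, in CPM on a log axis, with 1 line per library. All 5 lines rise for Atf3 and Nupr1, whereas the lines of the other members cross or stay nearly level.

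Promoters are shown for Atf3 and Nupr1, which passed the test, and for Asns and Ppp1r15a, which did not. Atf3, Nupr1 and Asns hold a short form of the C/EBP-ATF element, the sequence through which ATF4 acts on many targets. The 250 bases before the RefSeq start are given, 5′ to 3′ on the strand of the gene, from build GRCm38.p6. Capitals mark a match to TGATGNAA or, in Ppp1r15a, to the cyclic AMP response element TGACGTCA, each searched on both strands.
Atf3: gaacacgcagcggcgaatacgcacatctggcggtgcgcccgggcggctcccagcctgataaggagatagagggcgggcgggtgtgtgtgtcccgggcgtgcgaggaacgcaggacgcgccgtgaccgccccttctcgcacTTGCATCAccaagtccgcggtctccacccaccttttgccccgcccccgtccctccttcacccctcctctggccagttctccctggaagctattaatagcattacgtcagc
Nupr1: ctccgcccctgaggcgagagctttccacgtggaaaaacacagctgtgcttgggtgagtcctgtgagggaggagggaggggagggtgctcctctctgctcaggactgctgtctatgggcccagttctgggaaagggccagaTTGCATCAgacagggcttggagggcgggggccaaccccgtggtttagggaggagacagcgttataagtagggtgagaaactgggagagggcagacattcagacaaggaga
Asns: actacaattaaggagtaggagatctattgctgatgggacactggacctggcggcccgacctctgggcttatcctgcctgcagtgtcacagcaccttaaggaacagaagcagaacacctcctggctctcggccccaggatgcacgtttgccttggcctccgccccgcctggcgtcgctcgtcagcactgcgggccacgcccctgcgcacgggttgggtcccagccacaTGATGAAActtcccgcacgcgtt
Ppp1r15a: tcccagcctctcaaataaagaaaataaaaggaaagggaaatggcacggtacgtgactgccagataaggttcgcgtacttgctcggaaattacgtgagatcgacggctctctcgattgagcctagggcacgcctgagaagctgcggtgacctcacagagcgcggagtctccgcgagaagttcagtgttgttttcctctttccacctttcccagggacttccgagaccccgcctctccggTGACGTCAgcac

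The Atf3 window lies at chr1:191183334-191183583 and the Nupr1 window at chr7:126625471-126625720, both on the minus strand. In both the match TTGCATCA begins at -110 from the start. These RefSeq starts lie inside the longer gene spans of the GENCODE annotation (chr1:191170296-191218039 and chr7:126623249-126630861), so that annotation places a start further upstream. The Asns window is chr6:7693210-7693459 (minus strand), with its match at -23, and the Ppp1r15a window is chr7:45526269-45526518 (minus strand), with its match at -12. The GENCODE span of Asns is chr6:7675169-7693254, so part of its window, with the match, lies inside that span. Chac1 also held TTGCATCA, at -193. In all, 4 of 10 members held TGATGNAA, against 3.45% of 32851 promoters of the same length, and 1 of 10 held TGACGTCA, against 1.55%. Asns and Ppp1r15a are shown beside Atf3 and Nupr1 because they hold a match and did not pass the test between these groups of cells. A match is a description of the letters and not evidence of binding.

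Atf4, the central transcription factor, had 191, 250, 233, 202 and 210 CPM in antral cells and 229, 277, 170, 147 and 166 CPM in remodeling cells. It was higher in remodeling cells at 2 and 3 wk and lower at 4, 5 and 6 wk, with a log2 fold change of -0.25 over the 5 libraries (SE 0.10, adjusted p = 0.0834). With the 3 later libraries alone it was lower, at -0.46 (adjusted p = 8.27e-05), and leaving out either 2 wk (-0.35, adjusted p = 0.011) or 3 wk (-0.33, adjusted p = 0.0426) was enough to bring it past the threshold. The call for Atf4 therefore depended on which ages entered.

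Ppp1r15a, which encodes the GADD34 subunit that directs a phosphatase to eIF2 and so restores translation, had 189 to 264 CPM in antral cells and 168 to 247 CPM in remodeling cells. Its log2 fold change was -0.10 (SE 0.06, adjusted p = 0.249), and with 4, 5 and 6 wk alone it was lower, at -0.16 (adjusted p = 0.0309). Ddit3, which encodes CHOP, a factor tied to cell death under prolonged stress, had 26.2 to 47.2 CPM in antral cells and 27.4 to 47.7 CPM in remodeling cells. The Ddit3 values were nearly the same within each library (ratios 0.88 to 1.05, log2 fold change -0.14, adjusted p = 0.152). With groups named from markers alone Ddit3 was lower in remodeling cells, at -0.44 (adjusted p = 0.00378).

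Ddit4 and Sesn2 encode stress-induced inhibitors of mTORC1, a kinase complex that promotes growth. Ddit4 had 41.5, 14.0, 11.2, 25.2 and 33.6 CPM in antral cells and 28.8, 11.9, 20.6, 24.4 and 44.2 CPM in remodeling cells, without a common direction (log2 fold change 0.17, adjusted p = 0.449). Sesn2 lay between 7.34 and 12.7 CPM in both groups, with a log2 fold change of -0.04 (adjusted p = 0.879). Asns, the asparagine synthetase gene, had 22.2 to 46.1 CPM in antral cells and 23.7 to 33.8 CPM in remodeling cells (log2 fold change -0.25, SE 0.10, adjusted p = 0.0823). Asns was lower past the threshold when the listed genes were kept for clustering (-0.39, adjusted p = 0.0041) and in thinned cells (-0.41, adjusted p = 0.0404). Trib3, a pseudokinase gene induced by CHOP and ATF4, stayed at or below 2.56 CPM in both groups (log2 fold change 0.71, adjusted p = 0.213). Chac1, which encodes an enzyme that breaks down glutathione, had 1 to 11 UMIs in a group and library and did not pass the filter on low counts.

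The remodeling group was made of 3 clusters, and the members differed between them. The Lox cluster, led by Lox, Ghr and Adamts5, held 1318 cells. There Atf3 had 372 CPM at 3 wk, from 25 cells, and 93.4, 134 and 43.1 CPM at 4, 5 and 6 wk. The largest antral cluster, led by Vpreb3 and Reln, had 248, 129, 126 and 32.9 CPM at these ages, so the Lox cluster was lower than it at 4 wk, overlapped it in counting interval at 5 wk and was higher at 6 wk. The antral cluster led by Inhba had 69.1, 68.5 and 29.6 CPM from 4 to 6 wk, below the Lox cluster at each age.

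In the S100a6 cluster, led by S100a6 and Tinagl1 and with Nupr1 itself among its leading genes, Atf3 had 301, 281, 209 and 113 CPM from 3 to 6 wk. In the Pamr1 cluster, led by H19, Pamr1 and Angpt2, it had 348, 560, 406, 325 and 279 CPM from 2 to 6 wk, the highest of the 3 at each age where they could be compared. The Pamr1 cluster held 92.4% of the remodeling cells at 2 wk and 63.1% at 3 wk, but 15.5%, 24.5% and 19.3% at 4, 5 and 6 wk.

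Nupr1 was highest in the S100a6 cluster at 4, 5 and 6 wk, with 2259, 1205 and 699 CPM, whereas at 3 wk it had 133 CPM there and 363 CPM in the Pamr1 cluster. The Lox cluster had 153, 658, 481 and 400 CPM from 3 to 6 wk. The largest antral cluster had 127, 652, 673 and 491 CPM at the same ages, so the counting intervals overlapped at 3 and 4 wk, and the Lox cluster was lower at 5 and 6 wk. In the antral cluster led by Inhba, Cyp11a1 and Cyp19a1, genes of hormone-producing follicles, Nupr1 had 9.61, 126, 152, 34.0 and 39.4 CPM from 2 to 6 wk. Antral clusters at 5 wk thus ranged from 34.0 to 673 CPM, wider than the gap between the antral and remodeling groups. Ddit3 also differed between clusters, with 23.6 CPM in the Lox cluster and 57.7 CPM in the Pamr1 cluster at 6 wk. At that age it had 19.7 CPM in the largest antral cluster and 45.2 CPM in the one led by Inhba. Ppp1r15a at 6 wk had 198 CPM in the S100a6 cluster and 434 CPM in the Pamr1 cluster, and 137 to 372 CPM in antral clusters. These cluster values carry counting error only and were not tested.

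**Figure D2:**
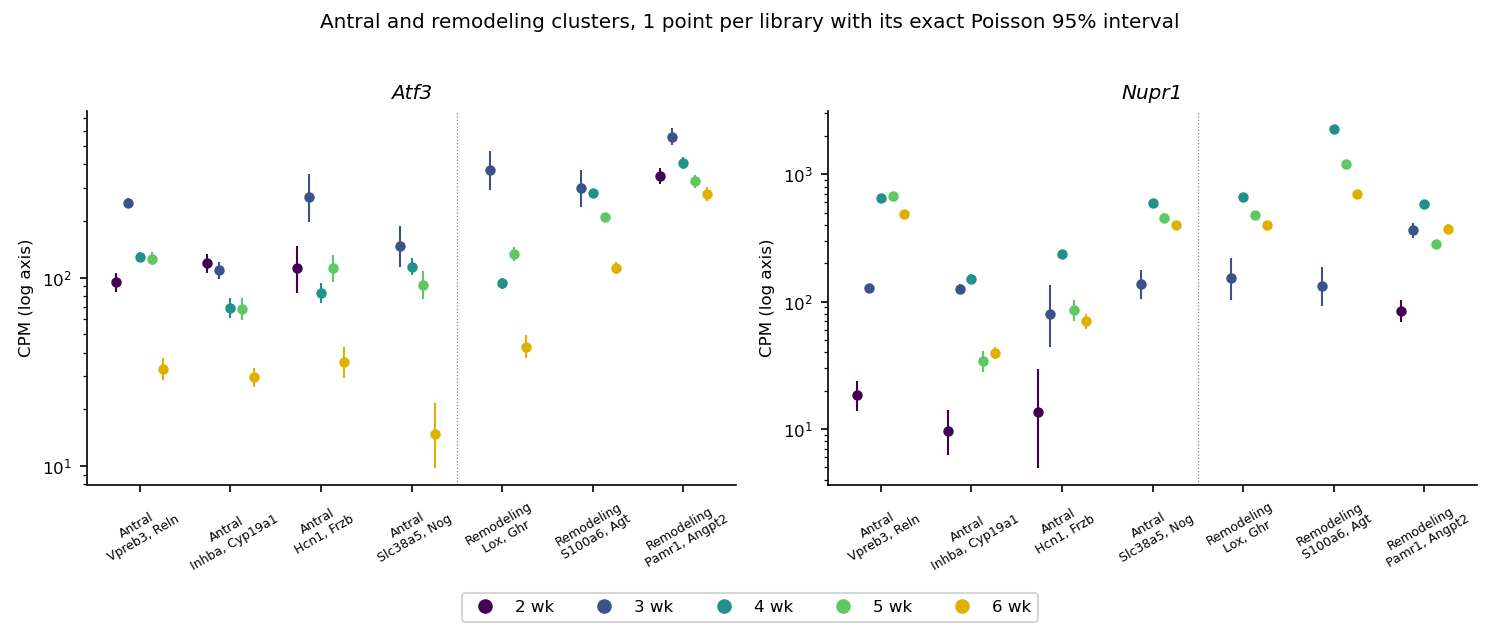
Atf3 and Nupr1 in each antral and remodeling cluster, in CPM on a log axis, with 1 point per library of at least 10 cells and its exact Poisson 95% interval. From 4 wk on the Pamr1 cluster has the highest Atf3 and the S100a6 cluster the highest Nupr1, while the Lox cluster has 43.1 to 134 CPM of Atf3 and 400 to 658 CPM of Nupr1.

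The lists of the wider pathway and of related stress responses went in different directions. Genes for chaperones and sensors of the endoplasmic reticulum were listed for other arms of the response to unfolded proteins. Immediate-early and heat-shock genes were listed for dissociation of tissue. Over all genes tested, 19.1% were higher and 18.8% were lower in remodeling cells. Of 16 genes for chaperones and sensors of the endoplasmic reticulum, 14 fell in remodeling cells relative to antral cells and none rose (median log2 fold change -0.80, against -0.01 over all genes tested). None rose at an unadjusted p under 0.05 or with DESeq2 either. Those with the largest changes were Sdf2l1 (-1.59), Manf (-1.16), Creld2 (-1.12) and Hsp90b1 (-1.03), which encode proteins that assist folding in that compartment. Of 20 tested genes for amino acid supply, 11 fell and 1 rose (median -0.50). Pycr1 (-1.65), Cbs (-1.25), Mthfd2 (-1.16) and Slc7a11 (-1.16) fell, with roles in making proline, in transsulfuration, in mitochondrial one-carbon metabolism and in cystine import, whereas Got1 rose by 0.30.

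Among 13 genes for eIF2, its exchange factor, its kinases and a constitutive phosphatase subunit, 5 fell and 1 rose with edgeR (median -0.20). With DESeq2 only 1 fell and 1 rose. The gene that rose was Eif2ak2 (0.32), the kinase activated by double-stranded RNA, and Eif2b4 (-0.33), Eif2b1 (-0.29), Eif2b3 (-0.25) and Eif2b5 (-0.20), subunits of the exchange factor, fell. Of 19 aminoacyl-tRNA synthetase and tRNA export genes 3 fell, namely Farsb (-0.35), Kars (-0.26) and Eprs (-0.25), and none rose, at an unadjusted p under 0.05 or with DESeq2 either (median -0.09). The remaining 16 did not pass, so the share that fell was close to the 18.8% of all genes.

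A list of 21 tested further targets of ATF4 or CHOP went the other way, with 11 higher and 3 lower (1 lower with DESeq2, median 0.44). Cdkn1a (1.42) and Gadd45a (1.39), known for arrest of the cell cycle and also targets of p53, and Vldlr (1.13), a lipoprotein receptor, and Stc2 (1.11), a secreted glycoprotein, rose, while Trib2 (-0.65), Herpud1 (-0.31) and Ero1l (-0.26) fell. Of 6 genes for partners of ATF4, Cebpd (2.02), Nfe2l2 (0.50) and Cebpb (0.48) rose and Cebpa (-1.15) fell (median 0.28). Immediate-early and heat-shock genes showed 13 of 23 higher and none lower (median 0.42), with 1 lower at an unadjusted p under 0.05 and none with DESeq2. They were led by Hspb1 (1.84), Socs3 (1.56), Gadd45b (1.24) and Btg2 (1.16).

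**Figure D3:**
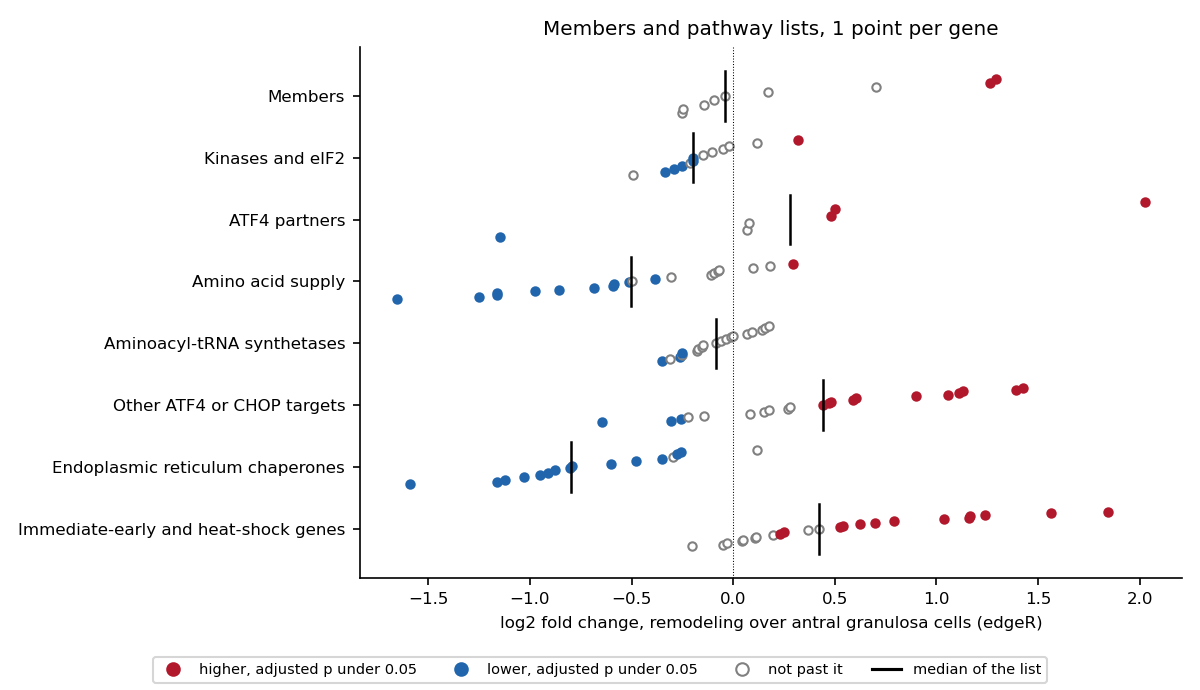
Log2 fold change of each tested gene of the members and of 7 lists between remodeling and antral granulosa cells, 1 point per gene, with the median of each list as a bar. Chaperones of the endoplasmic reticulum and genes for amino acid supply lie mainly below 0 (medians -0.80 and -0.50), while further ATF4 or CHOP targets and immediate-early genes lie mainly above it (medians 0.44 and 0.42).

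Ddit4, Ppp1r15a and Sesn2 were higher in antral than in secondary granulosa cells with the least dependence on single libraries. Of 9 members tested, 6 were higher in antral cells and 1 was lower, against 17.1% and 18.1% of the 12389 genes tested. Ddit4 had 15.6, 5.45, 7.07, 14.5 and 12.8 CPM in secondary cells from 2 to 6 wk, below its antral value in each library (1.59-fold to 2.65-fold), and its log2 fold change was 1.17 (SE 0.13, adjusted p = 0.00038). It had 68.0, 22.7, 15.1, 44.5 and 49.5 CPM in the antral cluster led by Inhba. The largest antral cluster had 20.2, 8.09, 10.2, 14.9 and 17.2 CPM, closer to secondary cells. These cluster values were not tested. Ppp1r15a had 132, 145, 157, 175 and 150 CPM in secondary cells, all below the lowest antral value of 189 CPM (log2 fold change 0.61, SE 0.07, adjusted p = 0.000382). Sesn2 was likewise separate, with 5.52 to 8.16 CPM in secondary and 8.57 to 10.7 CPM in antral cells (log2 fold change 0.53, SE 0.12, adjusted p = 0.0102).

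The other calls of this comparison were less firm. Atf3 had 33.5, 140, 119, 59.3 and 17.9 CPM in secondary cells and was higher in antral cells in 4 of 5 libraries (log2 fold change 0.71, SE 0.20, adjusted p = 0.0274), but not without 5 wk (adjusted p = 0.0727) or 6 wk (adjusted p = 0.0757). Atf4 was higher in antral cells in 5 of 5 libraries, by only 1.02-fold to 1.17-fold (log2 fold change 0.19, adjusted p = 0.0182), and lost the call without 2 wk (0.0517), 5 wk (0.0508) or 6 wk (0.082), adjusted p in each case. Ddit3 was higher by 0.39 (adjusted p = 0.0488) and lost the call when 2, 3, 5 or 6 wk was left out, with adjusted p between 0.0888 and 0.17. Asns ran against the others, with 37.9, 41.0, 50.8, 47.6 and 49.6 CPM in secondary cells and a lower antral value in each library (log2 fold change -0.47, SE 0.12, adjusted p = 0.0146, but 0.0638 without 5 wk and 0.0634 without 6 wk). In the largest antral cluster it had 26.4, 40.9, 47.8, 37.6 and 49.1 CPM, near secondary cells at 3, 4 and 6 wk. The antral cluster led by Inhba had 19.2, 27.2, 40.9, 19.8 and 17.0 CPM, and these cluster values were not tested.

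Nupr1 was not called between antral and secondary cells (log2 fold change 0.74, SE 0.30, adjusted p = 0.0823). At 2 wk it was lower in antral cells, at 14.2 CPM against 29.9 CPM, and at the other ages higher, and without 2 wk it rose by 1.05 (adjusted p = 0.00171). Trib3 gave -0.24 (adjusted p = 0.7), and Chac1 again did not pass the filter on low counts. The immediate-early and heat-shock sum was also higher in antral cells in each library (8062, 12024, 12973, 13906 and 8380 CPM in secondary cells), and its part in these results was not tested. Secondary cells also held more of the mitotic markers, 106 to 179 CPM against 36.4 to 71.5 CPM in antral cells. A secondary cluster of 1023 cells, 13.3% to 37.7% of the group in a library, was led by genes of DNA replication such as Cdc6, E2f1 and Mcm5, and the part of these cells was not tested.

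Among the lists, immediate-early and heat-shock genes had 11 of 23 higher in antral than in secondary cells and 1 lower (median 0.45, against 0.01 over all genes), led by Hspb1 (1.24), Klf6 (0.88), Zfp36 (0.79) and Dusp1 (0.72), with Hsph1 lower (-0.58). The shares over all genes tested were 17.1% higher and 18.1% lower. Further ATF4 or CHOP targets had 8 of 21 higher, led by Sesn3 (0.97), Bbc3 (0.92), Cdkn1a (0.73) and Map1lc3b (0.54), and 2 lower, Gdf15 (-1.46) and Stc2 (-0.93). Amino acid supply had 5 of 20 higher, among them Cbs (0.80) and Slc7a11 (0.60), and 8 lower, among them the serine synthesis genes Psat1 (-1.35), Phgdh (-0.95) and Psph (-0.82) and the transporter gene Slc7a5 (-0.75). With DESeq2, 2 of these 20 were higher and 5 lower.

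Of the chaperones only Dnajb9 passed in this comparison, 0.55 higher, and none of the 16 was lower, at an unadjusted p under 0.05 or with DESeq2 either. ATF4 partners had Cebpd (0.93), Cebpa (0.82) and Cebpb (0.53) higher and Nfe2l2 (-0.43) lower of 6. The synthetase list had Yars (0.33) higher and 5 of 19 lower (2 with DESeq2), led by Vars (-0.77) and Cars (-0.48). Among kinases and eIF2 genes none of 13 was higher (1 at an unadjusted p under 0.05, none with DESeq2) and 3 were lower, namely Eif2ak4 (-0.46), the kinase that senses uncharged tRNA, Eif2b3 (-0.31) and Eif2s1 (-0.17).

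**Figure D4:**
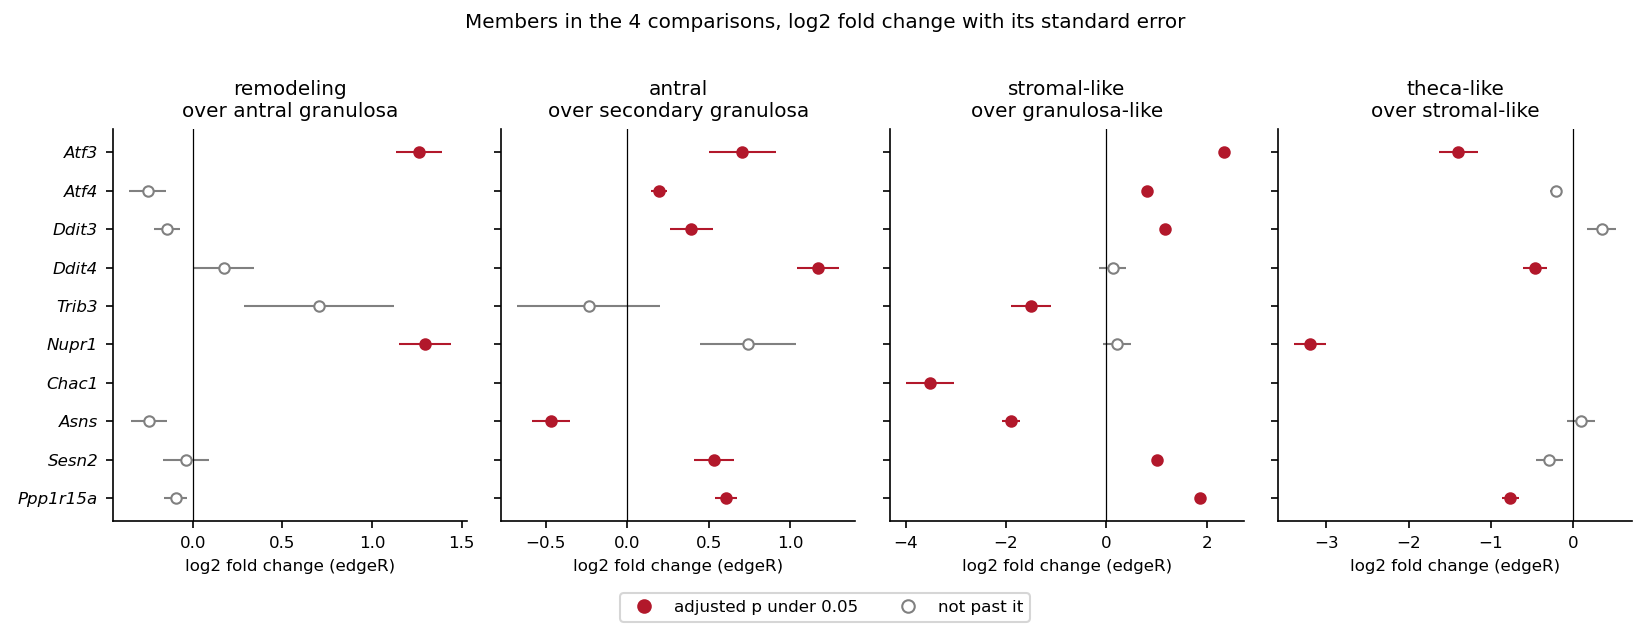
Log2 fold change of each member in the 4 comparisons between groups of cells, with the standard error of edgeR's fit over 5 libraries. Filled points passed an adjusted p of 0.05: Atf3 and Nupr1 in remodeling over antral cells, 7 of 9 members in antral over secondary cells, 8 of 10 in stromal over granulosa cells and 4 of 8 in theca over stromal cells.

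Some members were higher and others lower in stromal than in granulosa cells, as were large shares of all genes. Of 10 tested, 5 were higher and 3 lower in stromal cells, where 33.6% and 35.9% of the 14951 genes tested were called in these directions. The granulosa cells here included a cluster of 485 cells without a stage name, led by Col1a2 and Col1a1. Its part was not tested. Atf3 had 269, 847, 634, 533 and 150 CPM in stromal cells and 59.2, 163, 134, 112 and 38.5 CPM in granulosa cells, at least 3.88-fold higher in each library (log2 fold change 2.34, SE 0.07, adjusted p = 4.4e-07). Ppp1r15a had 514, 488, 542, 651 and 888 CPM against 158, 164, 170, 216 and 204 CPM, without overlap (log2 fold change 1.87, SE 0.10, adjusted p = 3.64e-06). Ddit3 (1.17, SE 0.09), Sesn2 (1.01, SE 0.11) and Atf4 (0.80, SE 0.06) were also higher in all 5 libraries.

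Asns was the clearest in the other direction. It had 34.0, 38.6, 43.4, 37.7 and 34.8 CPM in granulosa cells and 9.82, 15.4, 8.97, 6.49 and 6.86 CPM in stromal cells (log2 fold change -1.91, SE 0.18, adjusted p = 7.24e-05). Trib3 (-1.50, SE 0.39, adjusted p = 0.011) and Chac1 (-3.52, SE 0.48, adjusted p = 0.000453) were lower too, but from few molecules, since Chac1 had 2, 4, 2, 0 and 0 UMIs in stromal cells against 36, 52, 48, 28 and 25 UMIs in granulosa cells. Nupr1 (0.21, adjusted p = 0.522) and Ddit4 (0.13, adjusted p = 0.686) were not called, and both changed direction between libraries.

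For the lists that follow, 33.6% of all genes tested were higher and 35.9% lower in stromal cells. Of the immediate-early and heat-shock genes 18 of 23 were higher in stromal cells and 2 lower (median 1.51, against -0.04 over all genes), led by Klf4 (3.47), Socs3 (3.06), Dusp1 (2.63) and Hspa1a (2.60), with Hsph1 (-0.59) and Myc (-0.39) lower. Their sum was 20641 to 29863 CPM in stromal cells and 9353 to 14826 CPM in granulosa cells, and its part in the result was not tested. Chaperones had 10 of 16 lower, led by Sdf2l1 (-1.83), Ern1 (-1.34), Hyou1 (-1.27) and Pdia4 (-0.90), and Dnajb9 (0.88) and Xbp1 (0.27) higher (median -0.49).

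Amino acid supply had 9 of 22 higher in stromal cells, led by Aldh1l2 (3.66), Slc1a5 (2.33), Pycr1 (1.94) and Psat1 (1.12), and 6 lower, led by Cth (-3.07), Cbs (-2.36), Got1 (-1.02) and Slc7a5 (-0.97). Further ATF4 or CHOP targets had 11 of 21 higher, led by Jdp2 (2.78), Stc2 (2.65), Vldlr (2.27) and Cdkn1a (1.88), and 6 lower, led by Gdf15 (-1.82), Trib2 (-1.31), Nupr1l (-1.09) and Tnfrsf10b (-0.88). Of 6 partners Cebpd (4.91), Cebpb (1.60) and Atf5 (1.41) were higher and none lower, at an unadjusted p under 0.05 or with DESeq2 either. The synthetase list had 5 of 19 higher, led by Eprs (0.75), and 5 lower, led by Gars (-0.30), both below the shares over all genes (33.6% and 35.9%). Among kinases and eIF2 genes Ppp1r15b (0.49) was higher and 6 of 13 were lower, led by Eif2s1 (-0.70) and Eif2b5 (-0.51).

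Theca cells had lower levels of several members than stromal cells. The group was named from genes of steroid production, which the study also finds in interstitial gland cells, so it can hold both types. Of 8 tested, 4 were lower and none higher (none at an unadjusted p under 0.05 or with DESeq2), against 23.9% and 20.7% of the 13317 genes tested. Nupr1 had 7.39, 13.4, 38.3, 22.2 and 54.2 CPM in theca cells, all below the lowest stromal value of 75.1 CPM (log2 fold change -3.20, SE 0.19, adjusted p = 2.4e-05). Atf3 had 96.4, 339, 336, 294 and 23.2 CPM in theca cells, lower than stromal cells in each library (log2 fold change -1.39, SE 0.24, adjusted p = 0.00234). Ppp1r15a had 313 to 418 CPM, without overlap with stromal cells (log2 fold change -0.76, SE 0.11, adjusted p = 0.000895). Stromal cells held 344 to 556 CPM of mitotic markers, against 22.5 to 39.3 CPM in theca cells. Stromal clusters of 1064 and 565 cells were led by genes of dividing cells such as Tk1 and Kif20a. Another of 1820 cells held Hhip, the study's marker of early theca cells, among its leading genes. Theca markers in the theca group ranged from 820 CPM at 3 wk to 9673 CPM at 5 wk. The part of these cells and markers was not tested.

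Ddit4 was lower by a smaller amount in theca cells (log2 fold change -0.46, SE 0.15, adjusted p = 0.0352), a call that was lost without 3 wk (-0.30, 0.0974), 4 wk (-0.48, 0.0905) or 6 wk (-0.47, 0.0691), adjusted p in each case. Atf4 narrowly missed the threshold (-0.20, adjusted p = 0.0515) and passed it without 5 wk (-0.18, adjusted p = 0.0477). Ddit3 pointed upwards without passing, with 43.9, 74.0, 132, 136 and 69.0 CPM in theca cells against 43.1, 79.7, 79.7, 69.1 and 69.0 CPM in stromal cells (log2 fold change 0.35, adjusted p = 0.142). Sesn2 (-0.29) and Asns (0.10) did not pass either, and Trib3 and Chac1 were too low to test.

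The immediate-early and heat-shock genes moved with these members, with 18 of 23 lower in theca cells and Hspb1 (0.48) higher (median -0.65, against 0.00 over all genes). Klf4 (-2.31), Fosb (-1.10), Hspa1a (-1.04) and Socs3 (-1.02) led those that fell, and the part of these genes in the result was not tested. Further ATF4 or CHOP targets were divided, with Trib2 (2.48), Nupr1l (1.74), Stc2 (1.72) and Sqstm1 (0.43) among 5 higher and Jdp2 (-1.97), Gadd45a (-1.54), Vldlr (-1.11) and Trib1 (-1.05) among 5 lower of 20. Amino acid supply had 5 of 21 higher, led by Cth (2.42), Got1 (2.06), Slc7a11 (1.62) and Slc7a5 (1.54), and 5 lower, led by Aldh1l2 (-1.65), Pycr1 (-1.44), Slc1a5 (-1.30) and Psat1 (-0.96). The further targets and amino acid supply lay near the shares over all genes, 20.7% higher and 23.9% lower.

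Cebpa (3.03) was higher in theca cells, while Cebpd (-2.27), Atf5 (-0.97) and Cebpb (-0.61) were lower. Chaperones and sensors had Ern1 (1.14) and Atf6 (0.51) higher and 4 of 16 lower, led by Xbp1 (-0.54) and Dnajc3 (-0.36). Kinases and eIF2 genes had 4 of 13 higher, led by Eif2b4 (0.56) and Eif2b1 (0.35), and Ppp1r15b (-0.34) lower (none lower with DESeq2). In the synthetase list Dars (0.30), Xpot (0.27) and Kars (0.25) were higher and Cars (-0.29) lower, but with DESeq2 only 1 was higher and none lower.

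Across all cell types the members did not share one order. Means over libraries put Atf4 highest in lymphatic endothelial cells (340 CPM, SD 19.4, n = 5) and primordial granulosa cells (338 CPM, SD 33.1), and lowest in secondary granulosa cells (195 CPM, SD 30.9). Between its highest and lowest groups Atf4 thus differed by less than 2-fold, and the ranges of all neighbours in the order overlapped. Ppp1r15a was highest in pericytes, with 1188, 967, 1009, 1655 and 1964 CPM from 2 to 6 wk, above the 2 rete ovarii values of 786 CPM next in order, and lowest in mitotic granulosa cells (138 CPM, SD 20.2). Pericytes also had the highest Ddit3 (106 CPM, SD 21.6) and Sesn2 (18.5 CPM, SD 4.92), although their ranges overlapped with the next groups.

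Atf3 had its highest level in rete ovarii cells, the epithelium of tubules beside the ovary (1640 and 2617 CPM, measured at 2 and 3 wk only), followed by smooth muscle (1247 CPM, SD 654) and surface epithelial cells (1219 CPM, SD 640). Remodeling granulosa cells, at 262 CPM (SD 139), lay below stromal cells, at 487 CPM (SD 281). Nupr1 was the one member with its highest mean in remodeling granulosa cells (582 CPM, SD 453, n = 5), followed by primordial granulosa cells (336 CPM, SD 141) and smooth muscle cells (330 CPM, SD 144), with overlapping ranges. Its lowest mean among groups found in all libraries was in theca cells (27.1 CPM, SD 19.1).

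Ddit4 was highest in surface epithelial cells (155, 143, 172, 120 and 182 CPM), blood endothelial cells (138 CPM, SD 25.3) and pericytes (95.7 CPM, SD 26.6), all well above the 26.0 CPM (SD 11.9) of remodeling granulosa cells. Trib3 stood apart in lymphatic endothelial cells, with 28.8, 28.8, 23.6, 18.2 and 15.6 CPM from 2 to 6 wk, from 13, 7, 9, 19 and 2 UMIs. No other group exceeded 9.20 CPM in a library. Chac1 was low throughout, with its highest mean in blood endothelial cells (4.65 CPM, SD 4.37) from 1 to 13 UMIs per library. Asns was highest in secondary granulosa cells (45.4 CPM, SD 5.64), and the 5 other granulosa stages lay between 28.0 and 40.0 CPM on average, above stromal (9.51 CPM), theca (9.94 CPM) and hematopoietic cells (6.80 CPM). Rete ovarii cells, measured at 2 and 3 wk only, came second at 40.9 CPM. Surface epithelial (22.0 CPM) and blood endothelial cells (21.3 CPM) lay between the granulosa stages and stromal cells.

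**Figure D5:**
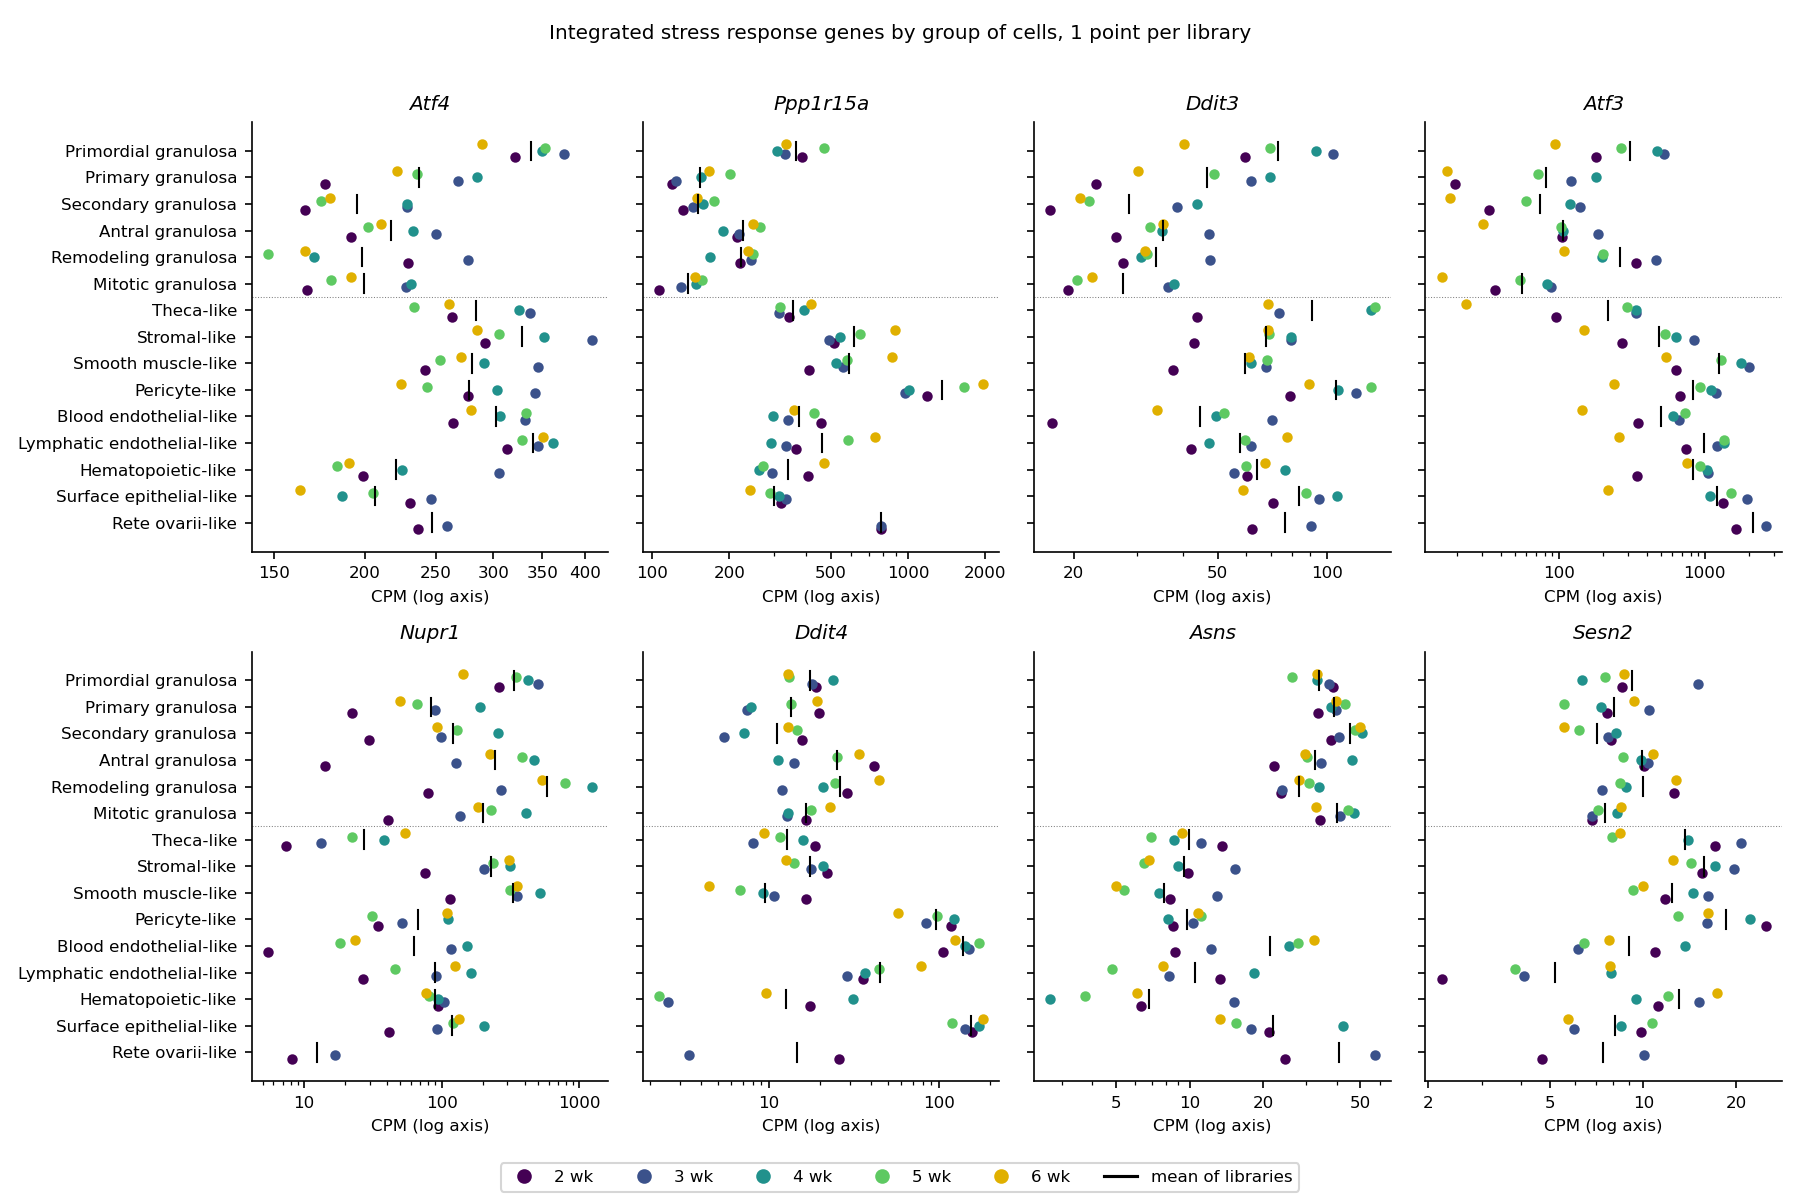
Level of 8 members in each group of cells, in CPM on a log axis, with 1 point per library coloured by age and the mean of the libraries as a bar. Ppp1r15a is highest in pericytes, Nupr1 in remodeling granulosa cells and Ddit4 in surface epithelial and blood endothelial cells, while Asns is higher in granulosa stages than in stromal or theca cells.

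Nupr1 and Atf3 differed with age in many groups at once. Nupr1 had its lowest level at 2 wk in 11 of the 14 groups found in all libraries, and its highest at 4 wk in 11 of 14. In antral cells it was 33.1-fold higher at 4 wk than at 2 wk (95% interval 26.8 to 41.2, exact and for counting error only), in remodeling cells 15.5-fold (12.8 to 18.9), in theca cells 5.19-fold (3.21 to 8.87) and in stromal cells 4.17-fold (4.01 to 4.35). The remodeling cells of these ages come from different clusters, since 92.4% at 2 wk and 15.5% at 4 wk lay in the Pamr1 cluster, where Nupr1 had 84.7 CPM at 2 wk and 579 CPM at 4 wk. Antral cells held 964 CPM of antral-stage markers at 2 wk and 1868 CPM at 4 wk, and 1992 and 423 CPM of primary-stage markers. The part of these markers in the antral values was not tested. Granulosa markers in other cell types were also highest at 4 wk in stromal, smooth muscle, pericyte, endothelial and surface epithelial cells, at 356 to 1074 CPM. In theca cells they were highest at 5 wk and in hematopoietic cells at 3 wk. Blood endothelial cells held 395 CPM of them at 2 wk and 993 CPM at 4 wk. The part of granulosa RNA in the Nupr1 values of these groups was not tested. Atf3 had its lowest level at 6 wk in 13 of 14 groups and its highest at 3 wk in 11. Its level at 6 wk was 0.295 of that at 5 wk in antral cells (0.267 to 0.325), 0.28 in stromal cells (0.272 to 0.289), 0.540 in remodeling cells (0.505 to 0.578) and 0.0791 in theca cells (0.0617 to 0.0998). In the theca group the theca markers summed to 9673 CPM at 5 wk and 1331 CPM at 6 wk, and the stromal markers to 103 CPM and 568 CPM, and their part in the theca values was not tested.

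In antral cells 2 of 9 members with enough counts were at least 2-fold higher at 4 than at 2 wk, Nupr1 and Asns (2.08-fold, 1.74 to 2.50), where 9.45% of all genes were. Another 2 were at least 2-fold lower, Ddit4 (0.271, 0.225 to 0.326) and Trib3 (0.131, from 6 and 15 UMIs), where 13.4% of all genes were. From 5 to 6 wk none of 10 members was 2-fold higher (3.17% of all genes) and only Atf3 was 2-fold lower (2.51%). In stromal cells Nupr1 and Atf3 (2.35-fold, 2.30 to 2.41) were 2-fold higher at 4 than at 2 wk of 9 members, against 6.07% of all genes, and none was lower, against 8.93%. From 5 to 6 wk none of the 9 was higher there (2.34%) and Atf3 alone was lower (7.60%).

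Each age is 1 library, so age and library cannot be told apart. In antral cells age also cannot be told apart from the follicle wave to which the study attributes them. The matrix headers name Cell Ranger 3.1.0 for 2, 3 and 4 wk and 6.0.1 for 5 and 6 wk, so the changes from 2 to 4 wk and from 5 to 6 wk each lie within 1 version, whereas any change from 4 to 5 wk cannot be told apart from the version. The immediate-early and heat-shock sum was 15085 CPM at 5 wk and 10935 CPM at 6 wk in antral cells, and 29863 and 22426 CPM in stromal cells, and its part in the lower Atf3 was not tested. Ddit3 had its lowest level at 2 wk in 11 of 14 groups. Ppp1r15a had its highest level at 5 wk in 6 groups and at 6 wk in 6, against 3 wk for Atf3 in most groups.

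The share of cells with a UMI was compared after each cell had been thinned to 5000 UMIs, which left out 11148 of 48163 cells. Nupr1 was found in 5.05%, 34.4%, 54.7%, 39.0% and 31.1% of antral cells from 2 to 6 wk, and in 13.3%, 27.4%, 67.3%, 50.3% and 44.6% of remodeling cells. At 3 wk the share was thus lower in remodeling cells, with overlapping exact binomial 95% intervals (19.5% to 36.6% against 30.6% to 38.4%), although the level was higher. Atf3 was found in 28.3%, 42.9%, 26.4%, 27.0% and 9.39% of antral cells and in 39.8%, 54.0%, 33.3%, 33.4% and 20.5% of remodeling cells, higher in remodeling cells at each age. Without thinning the shares of Atf3 were 22.9% to 57.0% in antral and 33.6% to 64.6% in remodeling cells.

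Both genes together were found in 1.52%, 14.1%, 14.5%, 10.3% and 3.5% of antral cells and in 4.42%, 19.5%, 25.6%, 18.1% and 8.84% of remodeling cells. Whether both met in a cell more often than their single shares would give was not tested. Cells with at least 5 of the 10 members were rare, at 1.01% to 4.97% of antral and 3.28% to 6.19% of remodeling cells, against 4.48% to 17.1% of stromal cells. Trib3 was found in 9.09% to 15.2% of lymphatic endothelial cells (median depth 5476 to 9663 UMIs) and in 0.0387% to 0.427% of stromal cells (median depth 7730 to 11857 UMIs), whose sums held 0.161 to 0.745 CPM. The unthinned shares of Trib3 were 13.5% to 20.8% and 0.165% to 0.645%.

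Over the 72 sums of a group and library, the members fell into patterns that are given as descriptions, since sums of a library share its age and depth. The level of Atf3 followed that of Ddit3 (Pearson r of log levels = 0.67) and of Ppp1r15a (0.60), and Ddit3 followed Ppp1r15a (0.64). The immediate-early and heat-shock sum tracked Atf3 (0.85), Ppp1r15a (0.82) and Ddit3 (0.71) more closely than Atf4 (0.57) or Nupr1 (0.11), and ran against Asns (-0.54). Among 6660 genes compared, the most alike were Lmna (0.86) and Klf4 (0.86) for Atf3, Junb (0.89) and Cebpd (0.88) for Ppp1r15a, and Gadd45b (0.73) and Ccnd3 (0.74) for Ddit3. Nupr1 was most like Mmp11 (0.69), itself a marker of the remodeling group, and Adamts2 (0.69). Ddit4 was most like the endothelial marker Esam (0.86), Trib3 like Fbln2 (0.83), Asns like Med19 (0.85), Atf4 like Zeb1 (0.76), Sesn2 like Zeb2 (0.70) and Chac1 like Mkl2 (0.62).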

How the data were processed

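Single-cell RNA of dissociated ovaries was measured in 5 libraries, 1 per age. The deposited matrices hold raw counts of UMIs, which the authors obtained with Cell Ranger at its default settings on build mm10. Matrix headers name version 3.1.0 for 2, 3 and 4 wk and 6.0.1 for 5 and 6 wk, whereas the labels list 3.1.0 for all. Counting at the 3′ end is strand-specific, so the overlap of Ddit3 with Mars and of Ppp1r15a with Tulp2, on opposite strands, is separated in the counts. Sesn2 overlaps Gm12981 on the same strand, which strand does not separate, and the effect on its counts was not tested.

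Cells were integrated and clustered with Seurat 5.3.0 (2000 variable genes less 33 members and list genes, 30 dimensions, resolution 1), giving 31 clusters, and granulosa cells again, giving 17. Names came from marker genes where enough of them were found. The thresholds were set after the clusters were seen, and 3 granulosa clusters were named by their match to published mean expression of the study's clusters. That match did not leave out the members. Clusters of the first round with 7887 cells stayed unnamed. A granulosa cluster of 485 cells took no stage name but was counted among granulosa cells. Doublets were kept, and leaving out those marked by Scrublet was an alternative.

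Counts were summed per library and group of at least 10 cells. Both groups of each comparison were tested with edgeR 4.0.16 (quasi-likelihood, TMM, filterByExpr, library as a block) in R 4.3.3, with Benjamini-Hochberg adjustment over all genes tested and a threshold of 0.05. Libraries are the replicates, and with the block the p-values measure only how the difference within a library varies between libraries. Each library is another age, so that spread includes any change of the difference with age. DESeq2 1.42.0 was an alternative, as were fits without TMM, filter or block, without each library, at resolution 0.6 and on thinned cells. Levels carry exact Poisson and shares exact binomial 95% intervals, for counting error only. All members are named, and of each list up to 4 genes per direction by size of change among those called. The members and lists were chosen with earlier results of these data known. The fits were tested on simulated data with groups fixed in advance and the same fold at each age. Such data cannot cover groups made by clustering the same cells or a difference that changes with age. Of 20 synthetase and export symbols 19 were matched, since 1 is an alias.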

Additional observations from a re-analysis of the deposited data

Results flagged for a closer look

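Sesn2 was flagged because its signal in cells outside the comparisons exceeded that of the named groups. An unnamed cluster of 1446 cells with few UMIs (median 1523.5) had a mean Sesn2 level of 20.5 CPM, against 18.5 CPM in pericytes, the highest named group. The libraries ranged from 4.62 CPM at 5 wk (1 UMI) to 53.6 CPM at 3 wk (25 UMIs), and without the 3 wk library the mean was 12.2 CPM, below that of pericytes. The difference was not tested.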

How the results depend on the processing

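Between remodeling and antral cells, Atf3 and Nupr1 kept their direction in every alternative and their call in all but the fit without the replicate block, where 0 members were higher and 1226 genes passed in place of 4642. Leaving out 1 library at a time gave 3052 to 5012 genes and 0 to 1 members lower. Members lower were 1 with no filter on low counts (Atf4), with listed genes kept for clustering (Asns), with thinned cells (Asns) and with groups from markers alone (Ddit3), and 2 with the 4, 5 and 6 wk libraries. Uncalled members changed sign: Ddit3 (0.21) and Ppp1r15a (0.018) with listed genes kept, Ddit4 (-0.34) and Asns (0.027) with markers alone, and Sesn2 (0.017) without TMM. Without single libraries Ddit4 ranged from -0.030 to 0.32 and Sesn2 from -0.14 to 0.037.

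Between antral and secondary cells, 1188 genes, 1 member higher and 0 lower passed without the block, 2799 genes passed with thinned cells, and 0 members were lower with listed genes kept. Without single libraries there were 2655 to 4090 genes, 3 to 6 members higher and 0 to 1 lower, and Trib3 ranged from -0.61 to 0.044. Between stromal and granulosa cells Ddit4 was -0.0077 without TMM and -0.083 to 0.40 without single libraries, and Nupr1 was -0.13 without the block. Between theca and stromal cells 1 member was higher with no filter and 2 were lower without the block. The cause of these changes was not tested. Few molecules limit Trib3 and Chac1, and 1 library per age limits every statement on age.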
